A study of Mus musculus with 4 samples.

Results

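Single cells of the thoracic aorta were compared between 2 libraries of mice labelled Sting-KO, a whole-body knockout of the gene for STING. One library came from mice given saline and a normal diet, and is called KO saline here. The other came from mice infused with angiotensin II (AngII) for 7 days and fed a high fat diet for 5 weeks, and is called KO AngII. All cells of both libraries were taken, 12053 of KO saline and 8507 of KO AngII, which makes 20560 of the 38316 cells of the series. The remaining cells belong to wild-type (WT) mice with the same 2 treatments. Infusion and diet were given together, so their effects cannot be told apart. Per the labels, each library pooled the aortas of 3 mice, fat around the vessel was removed, and cells that were viable by DAPI staining were sorted before droplet capture with a 3′ end kit from 10x Genomics.

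AngII is the peptide hormone of the renin-angiotensin system that constricts arteries and raises blood pressure. Infusing it into mice, often with a high fat diet, is a common model of aortic wall injury and aneurysm. STING is a membrane protein of the endoplasmic reticulum that senses the cyclic dinucleotide made by the enzyme cGAS on DNA in the cytosol, and it drives type I interferon and inflammatory genes. The thoracic aorta is built of smooth muscle cells in the media, fibroblasts in the adventitia, an endothelial lining and resident macrophages.

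Transcripts were counted as unique molecular identifiers (UMIs), so that each captured molecule counts once. UMIs were summed over a library or over the cells of a marker gate and divided by the total of that sum in units of 1000000 (counts per 1000000, CPM). The smooth muscle gate held cells with at least 3 UMIs of Myh11, the smooth muscle myosin heavy chain. The fibroblast gate held cells with at least 10 UMIs of the matrix proteoglycans Dcn and Lum together and at most 1 of Myh11. The phagocyte gate held cells with at least 10 UMIs of lysozyme (Lyz2) and the complement subunits C1qa and C1qb together and fewer than 10 of Dcn and Lum. These 6 genes define the gates and are no findings within them. With 1 library a side there was no replicate of a condition and no test between conditions. Each ratio below is KO AngII over KO saline, and its 95% interval covers counting error only, not the difference between mice. A gene at least 1.5-fold apart is called higher or lower.

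KO AngII was the deeper library per cell, with a median of 9294 UMIs per cell against 6071, and 2104 cells of KO saline (17.5%) but 0 of KO AngII held under 3000 UMIs. The library totals were 76841976 UMIs in KO saline and 94698727 in KO AngII. The median mitochondrial share was 6.27% in KO saline and 4.58% in KO AngII. The pair of libraries shared 148 cell barcodes, and any 2 libraries of the series shared 92 to 148. KO saline stood apart in one respect: of its 1105 cells with at least 10 UMIs of Dcn and Lum, 460 (41.6%) also had 3 or more of Myh11, against 10.8% in KO AngII, 14.0% in WT saline and 11.2% in WT AngII. Within the fibroblast gate the summed level of 8 smooth muscle markers was 4651 CPM in KO saline and 2007 CPM in KO AngII. The leading results of the fibroblast and phagocyte gates are therefore also given for cells with no Myh11 UMI. Markers of T and natural killer cells, neutrophils and red cells summed to under 2 CPM in either whole library. The neutrophil genes S100a9 and Cxcr2 were at 0 in both. Only 4 of 8 listed markers of T and natural killer cells, 5 of 6 of neutrophils and 2 of 5 of red cells were among the counted genes.

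Tmem173, which encodes STING, was detected in both libraries labelled Sting-KO. Its level over all cells was 1.33 CPM (interval 1.08 to 1.61, 102 UMIs) in KO saline and 6.10 CPM (5.62 to 6.62, 578 UMIs) in KO AngII. WT saline had 1.75 CPM and WT AngII 7.03 CPM. Within gates, KO saline and KO AngII had 0.738 and 1.59 CPM in smooth muscle, 10.9 and 12.5 CPM in fibroblasts, and 16.7 and 29.5 CPM in phagocytes. The sources used here do not give the deleted part of the gene, and 3′ end counts can include transcripts of a disrupted gene, so these counts do not check the genotype. KO AngII, with the larger value over all cells, had more fibroblasts and phagocytes, the gates with the higher Tmem173 levels. Its Tmem173 level was also higher within the muscle gate, with intervals of 0.551 to 0.968 in KO saline and 1.28 to 1.94 in KO AngII. In the fibroblast and phagocyte gates the intervals of the libraries overlapped. The part of either in the whole-library difference was not tested.

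The smooth muscle gate held 10372 of the KO saline cells, 86.1% (exact binomial interval 85.4 to 86.7), and 5668 of the KO AngII cells, 66.6% (65.6 to 67.6). The fibroblast gate held 506 cells, 4.20% (3.85 to 4.57), in KO saline and 1880 cells, 22.1% (21.2 to 23), in KO AngII. The phagocyte gate held 83 cells, 0.689% (0.549 to 0.853), in KO saline and 561 cells, 6.59% (6.08 to 7.14), in KO AngII. KO AngII thus had the smaller muscle share and the larger fibroblast and phagocyte shares, by differences far beyond counting error. Shares in the WT libraries ran the same way, from 81.7% to 69.5%, from 11% to 19.99% and from 3.08% to 8.30% with AngII, and the difference between genotypes was not tested. The fibroblast share depended on the Myh11 limit: with none it was 9.17% for KO saline and 25.5% for KO AngII, and with no Myh11 UMI allowed it was 2.62% and 18.5%. Once every cell was thinned to 3000 UMIs, the muscle shares were 82.4% and 43.0%, the fibroblast shares 3.75% and 14.0% and the phagocyte shares 0.704% and 6.34%. At the edge of the muscle gate, KO saline had 610 cells with a Myh11 count of 2 and 660 with a count of 3, and KO AngII had 221 and 217. At the edge of 10 UMIs of Dcn and Lum, counts of 9 and 10 came from 16 and 13 cells in KO saline and from 12 and 15 in KO AngII.

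**Figure D1:**
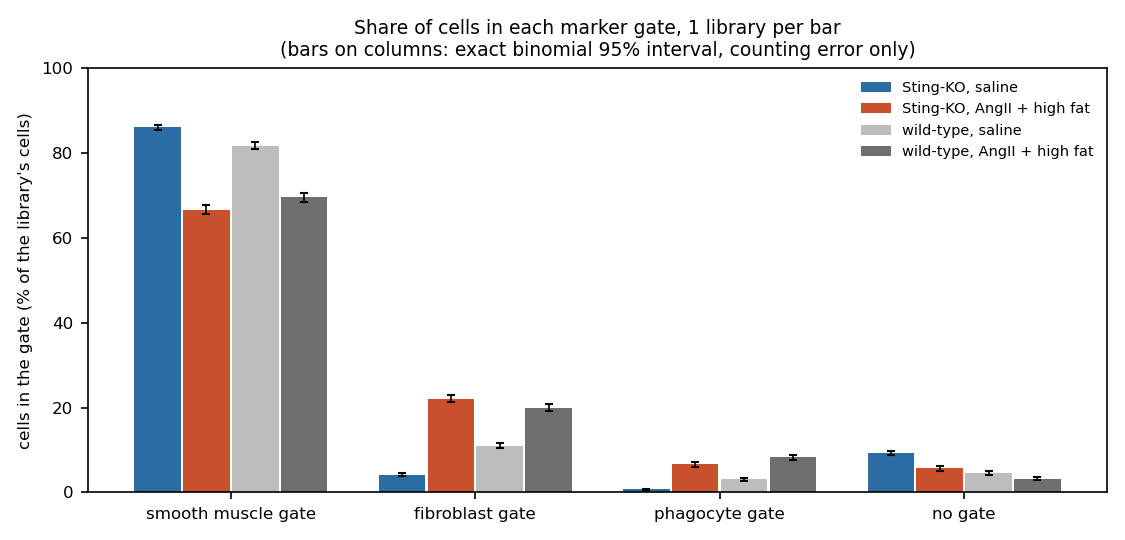
Share of each library's cells in the 3 marker gates and in no gate, in percent, for both Sting-KO libraries and, for reference, both wild-type libraries; each column is 1 library and the bars on it are exact binomial 95% intervals. The fibroblast column stands at 4.20% in KO saline against 22.1% in KO AngII, and the phagocyte column at 0.689% against 6.59%.

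Summed over all cells, gene levels moved with these shares, since fewer cells of a type and less RNA per cell cannot be told apart in a sum. Smooth muscle cells supplied 91.7% of the UMIs of KO saline and 63.3% of those of KO AngII, and fibroblasts 3.22% and 26.0%. Each whole-library ratio was set beside one in which the KO AngII gates were weighted to the KO saline shares. The median log2 ratio of the collagen genes was 2.13 as measured and 1.45 at saline shares, and that of matricellular and injury genes 2.02 and 1.96. Complement genes had a median of 1.84 as measured and -0.20 at saline shares, and MHC class II genes 1.37 and 0.01. The complement and class II medians were thus positive in the unweighted libraries and near 0 or below once shares were held, while the matricellular and collagen medians stayed above 1. For interferon-stimulated genes the medians were -0.19 and -0.63.

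In the smooth muscle gate, 860 of 11099 genes with at least 100 UMIs in the library of the higher CPM were higher with AngII (7.75%) and 1947 were lower (17.5%). Scaling by trimmed mean of M-values (TMM) moved all log2 ratios by 0.16 and made the counts 1227 higher and 1201 lower, so the surplus of lower genes depended on the scaling. Gene lists were read at a minimum of 50 UMIs over both libraries, where 8.68% of 12192 genes were higher, 19.0% were lower and the median log2 ratio was -0.18. Among lists with at least 5 measured members, the largest medians were those of cell cycle genes, at 2.99, and of matricellular and injury genes, at 1.94.

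Spp1, the secreted phosphoprotein osteopontin that injured and modulated muscle cells make, had the largest difference of the muscle gate. It counted 54 UMIs (0.767 CPM) in KO saline and 16867 UMIs (282 CPM) in KO AngII, a log2 ratio of 8.52 (interval 8.14 to 8.93). With each cell thinned to 3000 UMIs, 0.152% of KO saline and 12.4% of KO AngII muscle-gate cells had a Spp1 UMI, against 8.88% of the fibroblast-gate cells of KO AngII. Timp1, an inhibitor of matrix metalloproteinases, was at 24.3 and 349 CPM, and its thinned cell share was 5.00% and 29.8%. Of the KO AngII muscle-gate cells with a Spp1 UMI after thinning, 52.5% had one of Timp1. WT levels of Spp1 in the muscle gate were 1.81 CPM with saline and 199 CPM with AngII.

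Of the 14 matricellular and injury genes past the minimum, 12 were higher and 0 lower. Adam12, a membrane-bound metalloprotease, had 0.114 CPM in KO saline and 16.1 CPM in KO AngII, a log2 ratio of 7.14. Thbs1, the matricellular protein thrombospondin 1, had 23 and 292 CPM. Fn1 (fibronectin) had 714 and 2554 CPM, and Postn (periostin) 743 and 2130 CPM. Cyr61, a target of the YAP pathway, was on the low side with 805 and 627 CPM, short of 1.5-fold. The list median in WT was 1.86.

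Matrix genes of the muscle wall were also at higher levels. Of 15 collagen genes, 11 were higher and 1 lower, with a median log2 ratio of 1.11. The summed level of 10 fibroblast markers in the same gate was 3192 CPM in KO saline and 6542 CPM in KO AngII, and their part in the matrix differences was not tested. Col1a1 had 356 CPM in KO saline and 1292 CPM in KO AngII, and Col3a1 775 and 1977 CPM. Col14a1, a fibril-associated collagen, was the lower one, at 64.6 and 40.6 CPM. Eln (elastin), the main protein of the elastic lamellae, had 1749 and 6702 CPM, a log2 ratio of 1.94. Lox, which cross-links elastin and collagen, had 129 and 533 CPM. Ltbp4, which helps elastic fibres assemble and binds latent TGF-beta, had 376 and 164 CPM, so the 13 elastic fibre genes did not move as one, with 6 higher and 1 lower and a median of 0.30. Of 10 measured cartilage genes 4 were higher and 2 lower, with a median of 0.50. Acan (aggrecan) had 20.9 and 121 CPM, with thinned cell shares of 5.24% and 19.8%, and the transcription factor Sox9 28.7 and 92.8 CPM. Alpl, an alkaline phosphatase of mineralising tissue, was the lowest of the list at 3.65 and 1.64 CPM.

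Cell cycle genes were higher in 17 of 19 measured members. Top2a, the topoisomerase of dividing cells, had 1.18 CPM in KO saline and 19.9 CPM in KO AngII. Ube2c, of the anaphase-promoting machinery, had 1.48 and 40.7 CPM. Ccnb1 (cyclin B1) had 0.327 and 9.93 CPM, a log2 ratio of 4.93 (4.33 to 5.60). By contrast, the replication clamp Pcna was at 38.2 and 39.1 CPM. The median was 2.99, and 1.27 in WT. Over the 15 members measured in both genotypes it was 2.63 in Sting-KO and 1.27 in WT. With cells thinned to 3000 UMIs 9 members were left, of which 3 were higher, and their median was 0.38. After thinning, Ccna2 (cyclin A2) had a UMI in 0.109% of KO saline and 2.42% of KO AngII muscle-gate cells, and the fibroblast-gate share in KO AngII was higher for the replication factor gene 2810417H13Rik (9.31%) than the muscle-gate share (2.40%).

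Of the 20 genes of cholesterol synthesis 17 were higher and 0 lower, at a median log2 ratio of 1.27 against 0.82 in WT. Fdps, which makes farnesyl diphosphate, had 39.6 CPM in KO saline and 180 CPM in KO AngII, and Cyp51, the lanosterol demethylase, 11.8 and 50.5 CPM. Dhcr7, which catalyses the last step to cholesterol, was level at 3.19 and 3.20 CPM. The enzymes thus ran in one direction with Dhcr7 as a flat member. Thinned to 3000 UMIs, 10 of the 20 were higher and the median was 0.72.

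Heat shock chaperones were higher in 7 of 13 members with a median log2 ratio of 0.63, against -0.13 in WT. Hsph1, a large chaperone of the HSP110 family, had 60.0 CPM in KO saline and 197 CPM in KO AngII. Hspb1, the small chaperone that binds actin, had 1357 and 3290 CPM in the Sting-KO libraries and 2149 and 1216 CPM in WT. Hspa1a, the inducible HSP70, had 402 and 386 CPM in the Sting-KO libraries and 491 and 166 CPM in WT. The genotype difference was not tested. The metallothionein Mt1 and the glucocorticoid target Fkbp5 were 1128 and 1019 CPM and 3.72 and 5.56 CPM in the Sting-KO libraries, whereas WT saline stood high at 5788 and 53.4 CPM.

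Of 19 members of the contractile apparatus 4 were lower and 0 higher, a share close to the 19.0% of all genes that were lower in this gate. Their median log2 ratio was -0.35, against -0.18 for all genes, and became -0.19 under TMM scaling. Synpo2, a Z-line protein that bundles actin, had 560 CPM in KO saline and 283 CPM in KO AngII, and Lmod1, an actin nucleator of smooth muscle, 706 and 400 CPM. Acta2 (smooth muscle actin) had 23216 and 19145 CPM and did not reach 1.5-fold. Among genes of nitric oxide and cyclic GMP signalling, which relax the vessel, 5 of 9 were lower and 0 higher, with a median of -0.61 against -0.64 in WT. Gucy1a3 and Gucy1b3, the subunits of the nitric oxide receptor soluble guanylate cyclase, had 203 and 73.7 CPM and 166 and 76.2 CPM, and Pde5a, which breaks down cyclic GMP, 105 and 51.7 CPM. Of the 11 angiotensin signalling genes 3 were higher and 4 lower. The main AngII receptor gene Agtr1a had 1.55 and 0.835 CPM and the other type 1 receptor gene Agtr1b 0.696 and 2.59 CPM, on 109 and 50 UMIs of Agtr1a and 49 and 155 of Agtr1b.

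By the rule for naming genes, the highest ratios of the muscle gate after Spp1 included genes with 0 UMIs in KO saline. Ccl21a, a chemokine of lymphatic endothelium, had 0 and 430 UMIs, at least 168.5-fold higher with the 0 set to 3 UMIs, as in every such bound here, but 53 KO AngII cells (0.935%) held them all and the top 5 of these held 88.8%. Pbp2 had 0 and 284 UMIs, at least 111-fold higher, and its reads can be shared with the near-copy Pebp1, so it is uncertain. Ccl22 had 0 and 123 UMIs, which came from 2 cells. Hoxc10 and Hoxa10, transcription factors that mark the caudal trunk, were spread over more cells: Hoxc10 counted 6 UMIs in KO saline against 519 in KO AngII, and Hoxa10 12 against 481. After thinning, 0.0436% and 3.41% of muscle-gate cells had Hoxc10 and 0.0327% and 3.07% had Hoxa10. In WT AngII these genes were at 0 and 0.0773 CPM. The labels call every library thoracic aorta and do not say which segment each was cut from, so segment and treatment cannot be told apart for these genes. The remaining higher genes, 2810417H13Rik, Pbk and Ccna2, belong to cell division. Among the lower genes, Gpc3 (a heparan sulfate proteoglycan) had 25.3 and 3.47 CPM, Smim5 87.2 and 17.3 CPM, and Dbp, a clock output transcription factor whose level swings over the day, 58.7 and 10.9 CPM. Rab17 had 9.33 and 1.12 CPM, and Psd, Kcna2, Fn3krp, Gata4, Rasgrf2 and Bmf made up the 10.

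**Figure D2:**
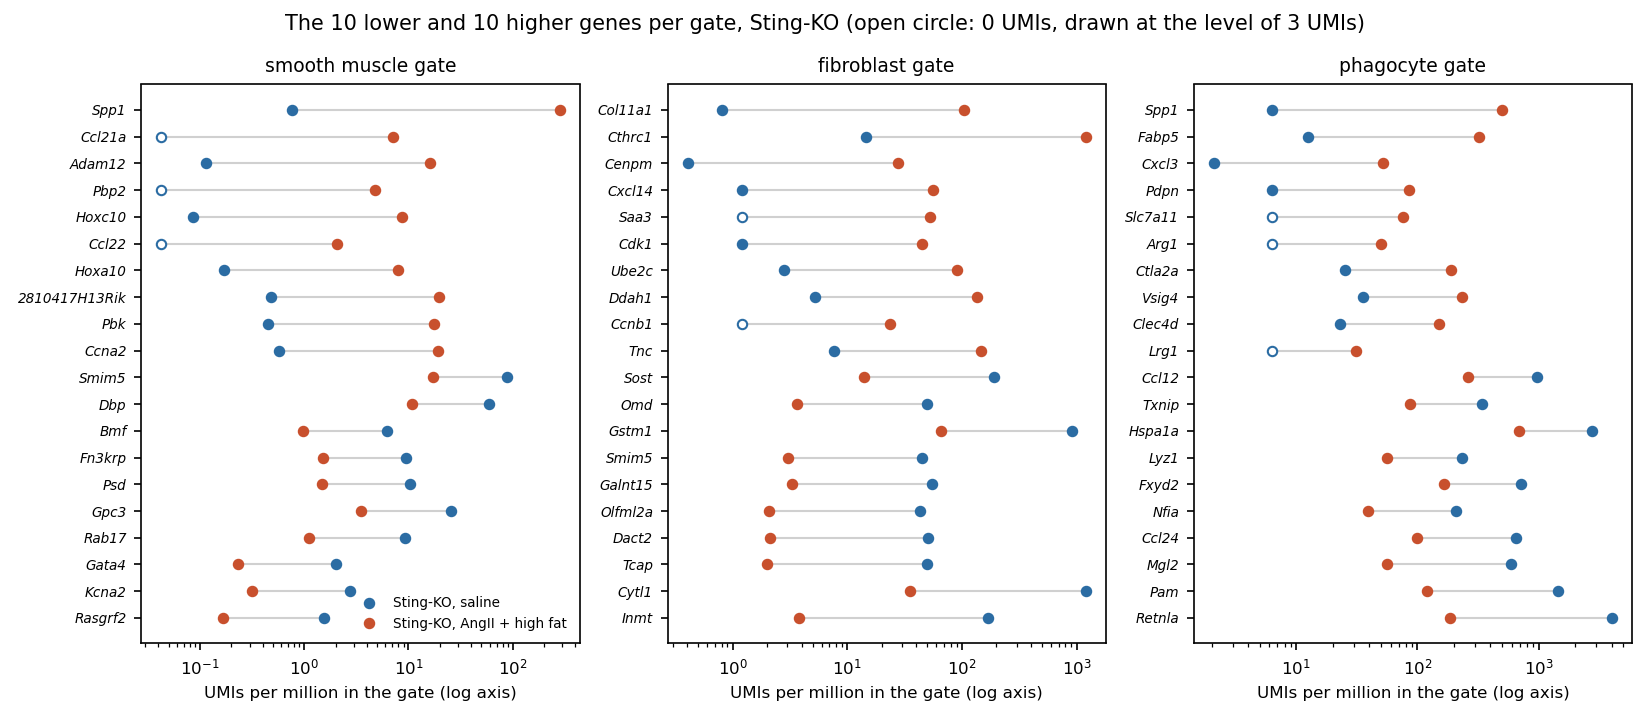
Levels of the 10 higher and 10 lower genes of each gate, chosen by the end of the counting interval nearest to no difference, in CPM of the gate on a log axis, with 1 point per Sting-KO library. An open circle stands for 0 UMIs and is drawn at the level of 3 UMIs. Spp1 lies at 0.767 and 282 CPM in the smooth muscle gate and Retnla at 4038 and 187 CPM in the phagocyte gate.

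In the fibroblast gate, 1338 of 5764 genes were higher (23.2%) and 865 were lower (15.0%). KO saline had 2474969 UMIs in this gate and KO AngII 24645663, so a gene could reach 100 UMIs at a lower level in KO AngII. With the same CPM asked of either library, 566 genes were higher and 865 lower, and with no Myh11 UMI allowed 1356 were higher and 571 lower. At the list minimum of 50 UMIs, 14.0% of 10891 genes were higher and 29.5% lower, with a median log2 ratio of -0.20.

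The largest ratio of the fibroblast gate belonged to the fibrillar collagen Col11a1. It had 2 UMIs (0.808 CPM) in KO saline and 2562 UMIs (104 CPM) in KO AngII, a log2 ratio of 7.01 with a wide interval of 5.15 to 10.05. Cthrc1, a secreted protein of matrix-producing fibroblasts, had 14.5 and 1204 CPM. After thinning, 2.70% of KO saline and 70.2% of KO AngII fibroblast-gate cells had a Cthrc1 UMI, against 4.63% of phagocyte-gate cells in KO AngII, so its difference spread over most fibroblasts. WT levels of Cthrc1 were 27.5 and 1608 CPM. Tnc had 7.68 and 147 CPM, Ddah1, which degrades the nitric oxide synthase inhibitor ADMA, 5.25 and 136 CPM, and the chemokine Cxcl14 1.21 and 55.6 CPM. Saa3, an acute phase apolipoprotein, had 0 and 1289 UMIs, at least 43.1-fold higher, yet it came from 45 cells and the top 5 of them held 71.4%. Ccnb1 had 0 and 580 UMIs, at least 19.4-fold higher.

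Collagens were higher in 18 of 20 members with 1 lower, at a median log2 ratio of 1.85 (1.57 in WT). Col1a1 had 1268 CPM in KO saline and 7989 CPM in KO AngII, and Col3a1 2011 and 11307 CPM. Col8a1, the short-chain collagen of injured vessels, had 73.5 and 664 CPM, and Col6a3 108 and 1065 CPM. Col18a1, a basement membrane collagen, was the lower one, at 91.7 and 41.8 CPM. Matricellular and injury genes were higher in 13 of 16 members with 2 lower and a median of 2.85 (2.20 in WT). Timp1 had 230 and 2954 CPM, and Thbs1 77.2 and 958 CPM. With no Myh11 UMI allowed, 18 of 19 collagens and 14 of 16 matricellular genes were higher, at medians of 2.0 and 3.15. Cell cycle genes were higher in 17 of 19 members at a median of 2.57, and thinning left 14 members with 13 higher and a median of 1.60.

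Chemokines that draw neutrophils and monocytes were at high levels in fibroblasts of KO AngII. Cxcl1 had 168 CPM in KO saline and 1347 CPM in KO AngII, and thinned cell shares of 15.3% and 57.9%. The monocyte chemokine Ccl2 had 229 and 1114 CPM, and its relative Ccl7 145 and 1579 CPM, with shares of 8.71% and 46.5% and of 9.01% and 53.7%. Of 4 measured CC chemokine genes in this gate, 2 were higher and 1 lower. Ccl11, another CC chemokine, had thinned cell shares of 19.5% in KO saline and 3.19% in KO AngII. Cxcl12, which retains leukocytes and progenitors in tissue, was on the other side at 565 and 208 CPM. Of 8 CXC chemokine genes 6 were higher and 1 lower, with a median log2 ratio of 1.46 against 2.83 in WT. Over the 7 CXC members measured in both genotypes the medians were 0.84 in Sting-KO and 2.69 in WT. Among ATF4 targets, which answer amino acid shortage and other stress, 12 of 17 were higher and 2 lower. Asns (asparagine synthetase) had 2.42 and 19.6 CPM and the serine synthesis enzyme Psat1 7.68 and 34.9 CPM, whereas the pseudokinase Trib3 had 10.5 and 3.41 CPM. Of 19 cholesterol synthesis genes 12 were higher and 0 lower, at a median of 0.99, with Cyp51 at 9.70 and 44.2 CPM.

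Genes of resting adventitial fibroblasts were lower in 15 of 17 members with 0 higher, at a median log2 ratio of -2.25, and -1.51 in WT. This list was drawn up with results of these libraries known, so its direction is no independent evidence. Pi16, a marker of adventitial progenitor-like cells, had 5268 CPM in KO saline and 1091 CPM in KO AngII, and 80.5% and 67.8% of cells after thinning. Inmt, a methyltransferase, had 168 and 3.81 CPM, Cytl1, a small secreted protein, 1206 and 35.2 CPM, and Clec3b (tetranectin) 1878 and 191 CPM. Gstm1, a glutathione transferase, had 922 and 65.7 CPM and cell shares of 82.3% and 17.6%. Mfap4, a matrix protein of the same list, was near level at 1288 and 1150 CPM. The complement list was lower in 5 of 8 members with 0 higher and a median of -1.49. Serping1 (the C1 inhibitor) had 2025 and 633 CPM, C3 321 and 101 CPM, and C1ra 183 and 44.1 CPM. The other named lower genes were Tcap, Dact2, Olfml2a, Galnt15, Sost, Smim5 and Omd. Smooth muscle markers were also lower in this gate (4651 and 2007 CPM). Their part in these differences was not tested, but with no Myh11 UMI allowed the resting list had a median of -2.36 and again 15 of 17 lower members.

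Interferon-stimulated genes, the antiviral genes that type I interferon and STING signalling switch on, were lower in the fibroblast gate of KO AngII. Many carry an interferon-stimulated response element (ISRE) in their promoter, the site bound by STAT and IRF factors. The motif, GAAA followed by any 2 bases and a second GAAA, was searched on both strands in RefSeq windows of 250 bases before to 50 after each start (GRCm38.p6). Of the 43 listed genes in the files 33 had a window, and 23 of these (69.7%) held the motif, against 1079 of 27025 genes (3.99%). Of the 30 genes past the UMI minimum 24 had a window and 16 held it. The 4 stretches below belong to genes described next and show the motif, in capitals with any overlapping matches merged, in the strand of the gene. They lie at chr4:156200862-156200921 (minus strand) for Isg15, chr19:34640760-34640819 (plus) for Ifit1, chr3:142530258-142530317 (plus) for Gbp7 and chr8:71537568-71537627 (minus) for Bst2, all upstream of the start site.
Isg15: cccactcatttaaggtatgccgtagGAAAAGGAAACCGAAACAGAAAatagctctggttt
Ifit1: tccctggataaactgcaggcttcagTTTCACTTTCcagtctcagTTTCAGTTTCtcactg
Gbp7: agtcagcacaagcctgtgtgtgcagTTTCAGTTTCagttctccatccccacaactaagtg
Bst2: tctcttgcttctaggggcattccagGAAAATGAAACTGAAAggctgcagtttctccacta

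Of 30 measured interferon-stimulated genes 26 were lower and 0 higher, with a median log2 ratio of -1.89, where 29.5% of all genes were lower and the median was -0.20. Isg15, a ubiquitin-like antiviral protein, had 35.6 CPM (88 UMIs) in KO saline and 8.85 CPM (218 UMIs) in KO AngII, a log2 ratio of -2.01 (-2.37 to -1.63). In the WT libraries Isg15 went the other way, with 34.8 CPM with saline and 139 CPM with AngII. Its thinned cell share was 6.91% in KO saline and 1.70% in KO AngII. Ifit1, which binds viral RNA caps, had 25.9 and 6.33 CPM, and 61.7 and 79.5 CPM in WT. Irf7, the transcription factor that amplifies interferon production, had 18.2 and 3.45 CPM, and 25.3 and 65.9 CPM in WT. Bst2 (tetherin) had 143 and 59.5 CPM, and 150 and 400 CPM in WT. The GTPase Gbp7 had 14.9 and 3.85 CPM, and Ifit3 21.8 and 3.65 CPM.

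The WT median of the interferon list was 0.49, and 0.40 over the 30 members measured in both genotypes. The saline levels of Isg15 and Bst2 were close in both genotypes, while that of Ifit1, and less so that of Irf7, was lower in Sting-KO. The AngII levels of all these genes lay well apart, and the difference between genotypes was not tested. Many members passed the minimum on low counts, such as Cmpk2, the lowest ratio of the list at -2.93, with 23 UMIs in KO saline and 30 in KO AngII. With the same CPM minimum for both libraries 10 members remained, of which 8 were lower and 0 higher, at a median of -1.65. With cells thinned to 3000 UMIs 11 remained, with 7 lower and a median of -0.70, and with no Myh11 UMI allowed 23 of 28 were lower at a median of -1.84.

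MHC class I genes, which present peptides and respond to interferon, were lower in 11 of 12 members with 0 higher and a median log2 ratio of -1.10, against 0.31 in WT. H2-D1 had 703 CPM in KO saline and 244 CPM in KO AngII, and H2-K1 228 and 119 CPM. The shared light chain B2m had 1438 and 740 CPM, and 1722 and 2221 CPM in WT. H2-Q4 had 88.9 and 17.1 CPM, though reads of this family can be shared between near-copies. With no Myh11 UMI allowed 11 of 12 were again lower, at -1.22, and with no limit on Myh11 8 of 12 were, at -0.65. In the muscle gate, by comparison, the interferon list counted 8 lower genes and 1 higher of 20, with a median of -0.55 (0.14 in WT). Iigp1, an interferon-induced GTPase, had 4.20 and 0.751 CPM there, Gbp7 5.68 and 1.82 CPM, and Isg15 3.93 and 3.56 CPM, so the muscle difference was smaller for Isg15 than that of fibroblasts.

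**Figure D3:**
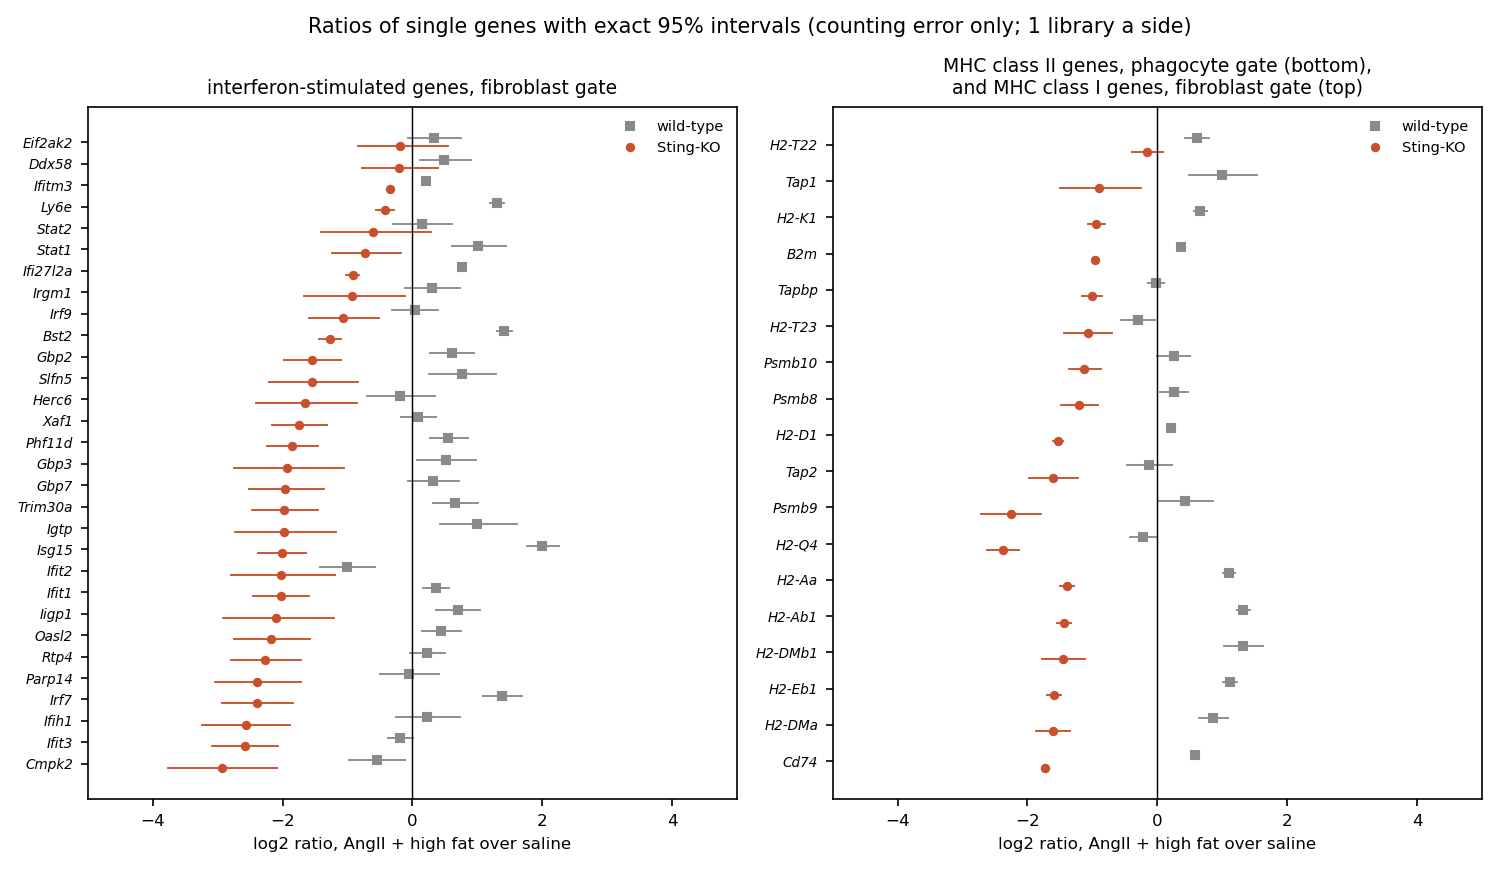
Log2 ratio of AngII with high fat diet over saline for each measured interferon-stimulated gene and MHC class I gene of the fibroblast gate and MHC class II gene of the phagocyte gate, with circles for Sting-KO, squares for wild type and exact 95% intervals for counting error. Isg15 lies at -2.01 in Sting-KO and Cd74 at -1.73, both left of the wild-type square.

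In the phagocyte gate, 757 of 2971 genes were higher (25.5%) and 94 lower (3.16%). This imbalance went with depth, since KO saline had 479699 UMIs in the gate and KO AngII 4850765. With the same CPM minimum for both libraries 83 were higher and 94 lower, and TMM scaling, which moved all log2 ratios by -0.30, gave 362 and 180. At the list minimum 16.3% of 7346 genes were higher and 15.9% lower, with a median of 0.00. The KO saline side rests on 83 cells.

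MHC class II genes, with which macrophages and dendritic cells present antigen to T cells, were lower in 6 of 6 measured members, at a median log2 ratio of -1.52. Cd74, the invariant chain, had 7842 CPM in KO saline and 2366 CPM in KO AngII, a log2 ratio of -1.73 (-1.78 to -1.68). H2-Ab1 had 2018 and 745 CPM, H2-Aa 1985 and 756 CPM, and H2-Eb1 1805 and 600 CPM. After thinning, 63.4% of KO saline and 30.3% of KO AngII phagocyte-gate cells had a Cd74 UMI, against 1.20% and 1.70% in their fibroblast gates, and 43.7% and 19.3% had H2-Ab1. The class II UMIs were concentrated: 5 of the 83 KO saline cells held 47.7% of them, and 5 of the 561 KO AngII cells 17.0%. In WT the same genes stood lower with saline and higher with AngII, at 3239 and 4825 CPM for Cd74 and 653 and 1634 CPM for H2-Ab1, and the WT median was 1.11. All 6 genes were lower under every alternative processing tried, with medians of -1.82 to -1.29, and with no Myh11 UMI allowed the median was -1.62.

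Genes of resident aortic macrophages were lower in 9 of 13 members with 0 higher and a median log2 ratio of -0.83 (-1.75 in WT). Retnla, a secreted protein of alternatively activated macrophages, had 4038 CPM in KO saline and 187 CPM in KO AngII, with cell shares of 31.0% and 2.67%. In either library 5 cells held most of its UMIs, 72.7% in KO saline and 87.2% in KO AngII. The lectin Mgl2 had 590 and 56.3 CPM and shares of 63.4% and 8.73%, and the chemokine Ccl24 648 and 100 CPM. Folr2, a folate receptor of resident macrophages, had 1317 and 654 CPM, and Lyve1, the hyaluronan receptor, 598 and 335 CPM. Cbr2 (965 and 976 CPM) and the scavenger receptor Stab1 (369 and 400 CPM) were level, so the list did not move as a whole. With no Myh11 UMI allowed 7 of 13 were lower, at a median of -0.65.

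Genes of lipid-associated macrophages were higher in 7 of 12 members and lower in 2, at a median log2 ratio of 1.22 (0.79 in WT). Spp1 had 3 UMIs (6.25 CPM) in KO saline and 2406 UMIs (496 CPM) in KO AngII, a log2 ratio of 6.31 (4.76 to 8.59), and cell shares of 1.41% and 25.8%. Trem2, the lipid-sensing receptor, had 163 and 581 CPM and shares of 31.0% and 71.1%, against 1.17% in KO AngII fibroblasts. Fabp5, a fatty acid carrier, had 12.5 and 325 CPM, the galectin Lgals3 315 and 1173 CPM, and the lysosomal protease Ctsd 548 and 1926 CPM. The lipid uptake genes of the list went the other way, with the fatty acid receptor Cd36 at 454 and 178 CPM and the lipase Lpl at 163 and 72.8 CPM. Genes of recruited monocytes were higher in 5 of 7 with 0 lower. This was not particular to phagocytes, since the list was also higher in 4 of 5 members in the muscle gate and 5 of 7 in the fibroblast gate. The monocyte chemokine receptor Ccr2 had 18.8 and 56.5 CPM, which rests on 9 UMIs in KO saline. After thinning, 0% of KO saline and 12.1% of KO AngII phagocyte-gate cells had a Ccr2 UMI. For the monocyte gene Ly6c2 these shares were 0% and 0.357%. With no Myh11 UMI allowed 8 of the 12 lipid-associated genes were higher, at a median of 1.36.

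Secreted signals of phagocytes were mixed. Ccl8, a monocyte chemokine, had 507 CPM in KO saline and 1962 CPM in KO AngII, and Ccl12, its relative, 967 and 262 CPM. For Ccl12, 5 cells held 72.6% of the KO saline UMIs, and its thinned cell shares were 32.4% and 29.6%. Il10, an anti-inflammatory cytokine, had 18.8 and 72.8 CPM, Osm (oncostatin M) 79.2 and 183 CPM, and Il1b 463 and 281 CPM, where WT had 130 and 520 CPM of Il1b. Of 6 cytokine genes 4 were higher and 2 lower, and 5 cells held 62.6% of their KO saline UMIs. Slc7a11, the cystine transporter, had 0 UMIs in KO saline and 371 in KO AngII, at least 12.2-fold higher, Arg1 (arginase 1) 0 and 244 UMIs, at least 8.04-fold higher, and Lrg1 0 and 150 UMIs, at least 4.94-fold higher. Clec4d, a C-type lectin, was detected in 4.23% and 31.7% of cells after thinning, and Pdpn, Cxcl3, Ctla2a and Vsig4 completed the 10 higher genes. Pam, which amidates peptides, had 1436 and 119.6 CPM, where WT had 126 and 184 CPM. Hspa1a had 2752 and 685 CPM, and Nfia, Fxyd2, Txnip and Lyz1 were also among the 10 lower. The Lyz1 ratio rests on 5 cells, which held 98.2% of its KO saline UMIs, and its thinned cell shares were 8.45% and 6.95%.

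Interferon-stimulated genes of phagocytes did not give a stable direction. Of 22 members 14 were lower and 4 higher, with a median log2 ratio of -0.74 against 0.14 over 41 members in WT. Over the 22 members measured in both genotypes the WT median was 0.08. With the same CPM minimum 4 members were left, at a median of -0.39, thinning left 7 with a median of 0.04, and with no Myh11 UMI allowed 7 of 17 were lower and 5 higher at -0.18. Isg15 had 16.7 CPM (8 UMIs) in KO saline and 25.2 CPM in KO AngII. MHC class I genes of phagocytes were lower in 6 of 13 with 0 higher, at a median of -0.58. Smooth muscle markers summed to 6823 CPM in the phagocyte gate of KO saline and 5432 CPM in that of KO AngII, and 18 of the 83 KO saline cells (21.7%) and 82 of the 561 KO AngII cells (14.6%) were also in the muscle gate. Their part in the results of this gate was not tested.

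**Figure D4:**
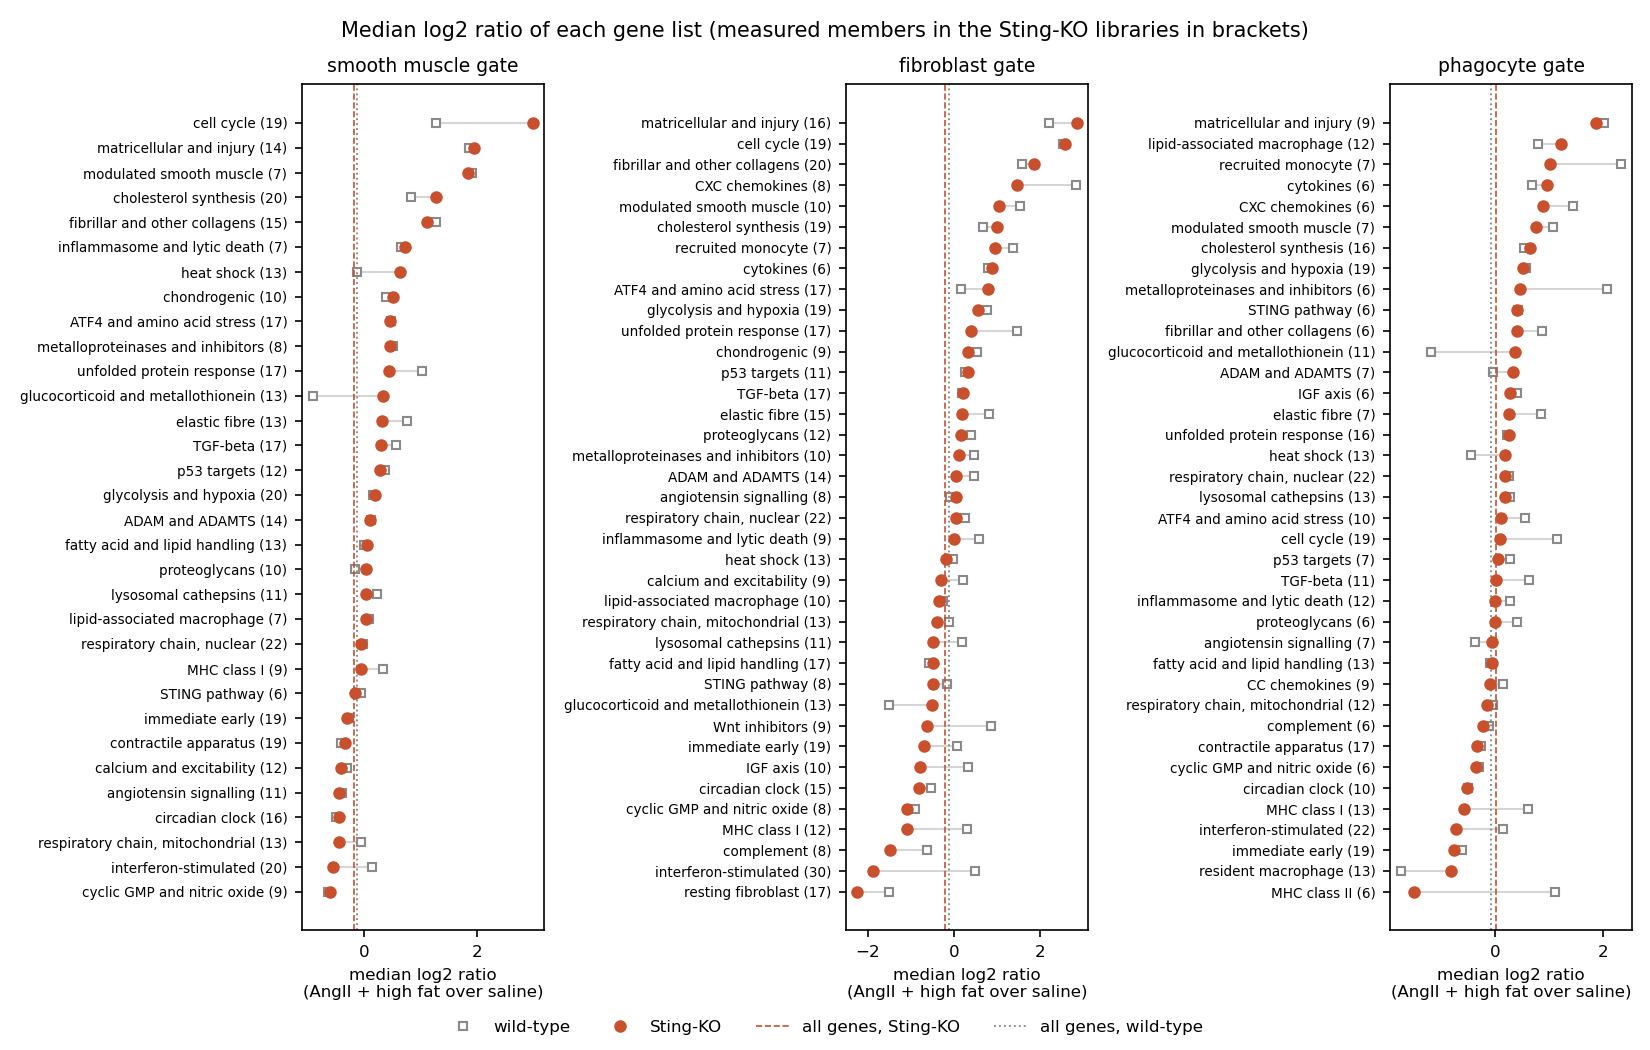
Median log2 ratio of gene lists in the 3 gates, with filled circles for Sting-KO, open squares for wild type and vertical lines at the median of all genes. Lists with too few measured members in either genotype are left out. In the Sting-KO pair the interferon-stimulated list lies at -1.89 in the fibroblast gate and the MHC class II list at -1.52 in the phagocyte gate, with wild type at 0.49 and 1.11.

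**Figure D5:**
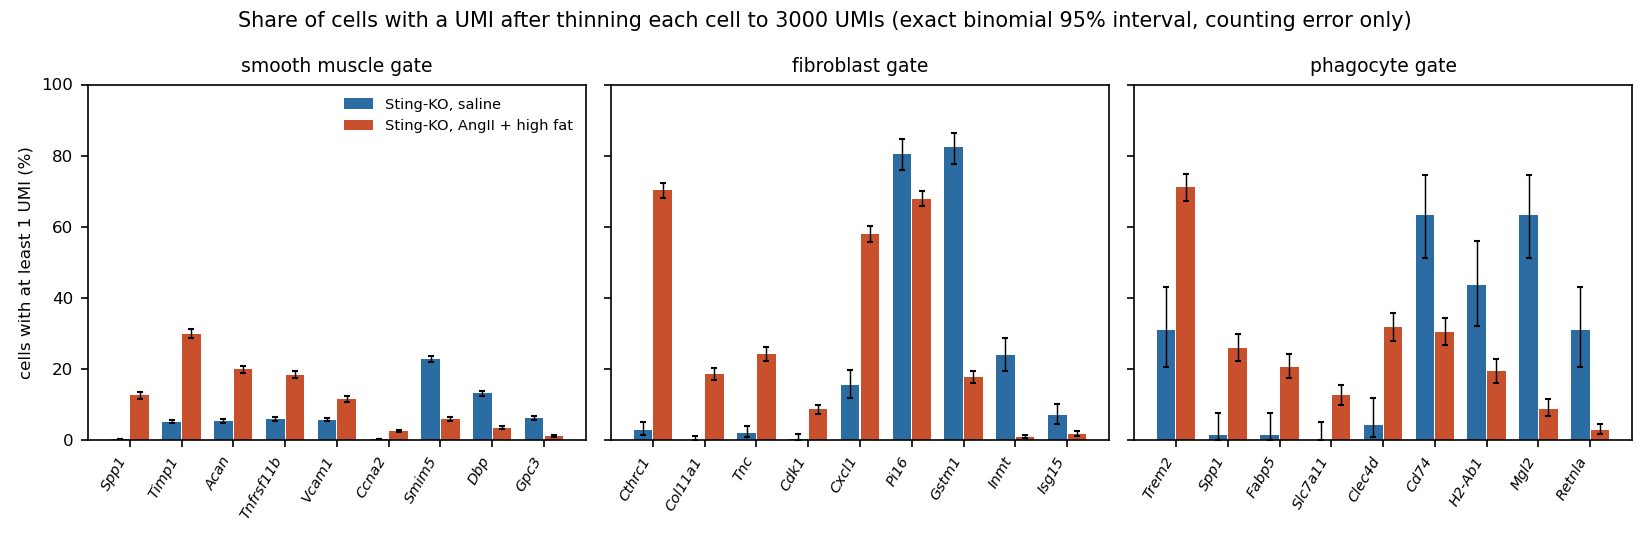
Percent of cells with at least 1 UMI of selected genes of each gate after every cell was thinned to 3000 UMIs, in KO saline and KO AngII, with exact binomial 95% intervals. Cthrc1 lies at 2.70% and 70.2% of fibroblast-gate cells and Mgl2 at 63.4% and 8.73% of phagocyte-gate cells.

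For thinned gene counts, list medians and gate shares, the gates were set again on the thinned cells, so fewer cells passed them. The KO AngII muscle share was then 43.0% instead of 66.6%, and its fibroblast share 14.0% instead of 22.1%. For shares of cells with a UMI, the gates were set before thinning. Thinning then left out 1190 of 10372 muscle-gate, 173 of 506 fibroblast-gate and 12 of 83 phagocyte-gate cells of KO saline as too shallow. It left out 0 of KO AngII. Most of the same genes unthinned gave larger shares, as with Acan at 38.6% of KO AngII muscle-gate cells. A few did not, as with Retnla at 27.7% of KO saline phagocyte-gate cells unthinned and 31.0% thinned. Promoters of 2 lists of the muscle gate were searched as well. The sterol element TCACNCCAC (N is any base) was in 1 of 14 cholesterol synthesis genes with a window, against 1.44% of all genes, and the heat shock element (GAA, any 2 bases, TTC, any 2 bases, GAA) was in 3 of 10 chaperone genes (30%), against 0.662%. The 2 stretches below show these matches, in capitals with overlapping matches merged, upstream of Hmgcs1 (chr13:119690189-119690247, plus strand) and of Hspd1 (chr1:55088039-55088101, minus strand). Hmgcs1, which makes the precursor of mevalonate, had 36.5 CPM in KO saline and 84.3 CPM in KO AngII in the muscle gate, and Hspd1, the mitochondrial chaperonin, 74.1 and 114 CPM. Hspe1, another of the 3 chaperone genes, has its match in the same bases as Hspd1, on the opposite strand. The 2 genes thus share 1 site. A match describes these letters and shows no binding.
Hmgcs1: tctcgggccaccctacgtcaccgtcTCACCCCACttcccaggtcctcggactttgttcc
Hspd1: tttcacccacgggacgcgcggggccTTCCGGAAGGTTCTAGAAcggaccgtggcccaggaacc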

How the data were processed

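Single-cell RNA was measured in 4 libraries, 1 per genotype and treatment, each from 3 pooled mice. The authors deposited UMI counts per gene and cell, a whole-number count table per library with 17524 genes. The submitters' processing notes list Cell Ranger and mm10, while the sources used here give neither a version nor the cell filters. Counts were summed per library and gate, with no further cell filter and no doublet caller, and divided by the gate's total. Ratios carry exact conditional intervals, levels exact Poisson intervals and shares Clopper-Pearson intervals, all at 95% and for counting error only. A count of 0 was set to a floor of 3 UMIs for ratios. Genes needed 100 UMIs on the side with the higher CPM, and list members 50 over both libraries. WT list medians were taken over the members past these limits in the WT libraries, which can differ from those of Sting-KO. To limit free RNA, a gene also needed at least 0.1 of its highest CPM over the 3 gates of the same library. Ratios were computed in Python 3.11.15 with numpy 2.4.6 and scipy 1.17.1, and figures with matplotlib 3.10.9. edgeR 4.0.16 in R 4.3.3 gave only the TMM factors.

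The named genes are the 10 higher and the 10 lower per gate, ranked by the interval end nearest to no difference, Tmem173, and, per list, members among its highest and lowest. Further list members were named for their known role after their values were seen. Mitochondrial, ribosomal protein and gate genes were not ranked. Members and lists were chosen with earlier results of these data known. On simulated counts, all 50 genes per direction and gate at a true fold of 2 were called, as were those at 4, and intervals held the truth for 95.1% of genes in smooth muscle, 95.3% in fibroblasts and 96.5% in phagocytes. Alternatives covered scaling, minimums, gates, cell filters, cells with markers of several classes, and depth.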

Additional observations from a re-analysis of the deposited data

Results flagged for a closer look

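The MHC class II genes of the phagocyte gate had opposite directions in the genotypes. Their median log2 ratio of AngII over saline was -1.52 in the Sting-KO libraries and 1.11 in WT, and every gene measured in both was on its side. The difference was not tested, since each genotype has 1 library per treatment, and the KO saline value rests on 83 cells.

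Secreted inhibitors of the Wnt pathway in the fibroblast gate had medians of opposite sign, at -0.63 in the Sting-KO libraries and 0.86 in WT. Of 9 members 1 was higher and 5 lower in Sting-KO, and 5 were higher and 2 lower in WT. Dact2, the lowest member, was lower in both, at a log2 ratio of -4.58 and -3.00, and so was Dact1, at -1.92 and -1.53. Wif1, which binds Wnt ligands, had 35.6 CPM in KO saline and 6.01 CPM in KO AngII, against 2.67 and 12.6 CPM in WT, and Dkk2, a blocker of the Wnt co-receptor, 5.66 and 3.12 CPM against 1.22 and 4.69 CPM. The Dkk2 counts are low, and its Sting-KO interval (log2 -1.69 to 0.08) spans no difference. The Sting-KO median of the list was short of 1.5-fold under 6 alternatives. This difference was not tested either.

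Cells in no gate were outside the comparisons. In them, 4 markers of lymphatic endothelium summed to 520 CPM in KO AngII and 0.282 CPM (1 UMI) in KO saline, and to 1.06 CPM in WT AngII and 157 CPM in WT saline. The Ccl21a UMIs of the muscle gate are among the genes of this list.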

How the results depend on the processing

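No paired analysis was possible because each group is 1 library, and for the same reason no library could be left out. Of the alternatives, the equal CPM minimum, the gates with no Myh11 UMI and the removal of cells under 4000 UMIs were chosen after seeing the data. The genes tried were the 60 named by rank, chosen in these data for intervals far from no difference. Their staying past 1.5-fold is thus no independent evidence. Over 14 alternatives, with each result counted once per alternative, 838 gene ratios and 1455 list medians kept their side of 1.5-fold. Of the others, 72 list medians moved past it and 48 moved back. A change of direction was looked for only where the reported value was past 1.5-fold, which held for 41 of 113 list medians. The share difference of the muscle gate (-19.4 points) was -12.5 with doubled marker minimums, -39.4 thinned to 3000 UMIs and -27.9 without cells under 4000 UMIs. That of the fibroblast gate (17.9 points) was 16.4 with doubled minimums, 16.3 with no Myh11 maximum, 10.2 thinned, 15.9 with no Myh11 UMI and 19.3 without cells under 4000 UMIs. That of the phagocyte gate (5.91 points) was 5.09 without cells of several classes and 4.39 with no Myh11 UMI. Lower genes of the muscle gate (1947) numbered 1201 under TMM and 1154 under median-of-ratios scaling, and 792 thinned, when higher genes numbered 268. Higher genes of the fibroblast gate (1338) numbered 566 at an equal CPM minimum and 619 thinned. Lower genes there (865) numbered 305 at a minimum of 300 UMIs, 2578 at 20 UMIs, 1537 with no Myh11 maximum, 313 thinned and 571 with no Myh11 UMI. Higher genes of the phagocyte gate (757) numbered 362 and 364 under the 2 scalings, 289 at 300 UMIs, 1572 at 20 UMIs, 83 at an equal CPM minimum and 392 thinned. Lower genes there (94) numbered 180 and 177 under the scalings, 36 at 300 UMIs, 517 at 20 UMIs, 56 thinned and 62 with no Myh11 UMI. Minimums and thinning change how many genes are tested, and for the other settings the cause was not tested. Among ratios past 1.5-fold as reported, that of Ccl22 in the muscle gate changed sign with doubled minimums (-1.26). KO saline had 0 UMIs of Ccl22, so this sign comes from the floor of 3 UMIs and shows no lower level with AngII. Contractile genes in the fibroblast gate reversed without cells under 4000 UMIs (0.00964). So did interferon-stimulated genes in the phagocyte gate when thinned (0.0400), and cholesterol synthesis genes there at an equal CPM minimum (-0.98, 1 member). Depth limits the phagocyte gate of KO saline most, where 3 UMIs correspond to 6.25 CPM.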
